A study of Mus musculus with 7 samples.

Results

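The genes encoding collagen chains were followed in lung endothelium of E18.5 mouse embryos, a stage close to birth. Members were all genes whose symbol in the array annotation was Col, a number, a and a number, other than Col1a1 and Col1a2. This gave 42 of the 22180 genes with a probe set of 1 symbol, and 40 of the 42 were among the 16637 genes kept after the dimmest 25% of genes were left out. Col6a5, a beaded filament collagen, and Col19a1, a collagen of fibril surfaces, were the 2 left out. Where a gene had more than 1 probe set, the one with the highest mean over the 7 arrays stood for it.

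The series held 3 arrays labelled wild-type and 4 labelled Sash1-knockout, whose embryos were described as Sash1-/- and as littermates of the wild-type ones on a C57BL/6 background. Both genotypes were handled alike, as viable cells positive for CD31 (an endothelial marker) and negative for CD45 (leukocytes) and CD326 (epithelium), with no gate stated against fibroblasts or mural cells. Neither the removed part of Sash1 nor whether a sample was 1 embryo or a pool is given in the labels, so p-values reflect only how far these samples spread, which may be technical. The groups are called the wild-type set and the knockout set here, after these labels. All values are RMA signals on the log2 scale, where 1 unit is a 2-fold step, and each difference is the mean under the knockout label less that under the wild-type label.

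Collagens are secreted or membrane-bound proteins built on a rope-like helix of chains with glycine in a regular repeat, and each class assembles into its own kind of structure. Endothelial cells rest on a basement membrane whose meshwork is type IV collagen, and the fibrils outside it are made largely by fibroblasts. In the lung this matrix holds the thin wall between capillary and air space.

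Sash1 was at 8.33 to 9.02 in the wild-type set and 8.13 to 8.68 in the knockout set, a difference of -0.37 with an adjusted p of 0.971 in limma. Wild-type 3 (8.33) lay within the knockout-labelled range and knockout 3 (8.68) lay above wild-type 3, so these 2 arrays stood in the reverse order of their labels. Wild-type 3 was above knockout 1 (8.29), 2 (8.21) and 4 (8.13), and knockout 3 was below wild-type 1 (9.02) and 2 (8.73). A probe set outside the removed part checks nothing. Groups therefore follow the labels alone, and counts are also given without wild-type 3 and knockout 3. All 10 endothelial markers, among them Pecam1, Cdh5 and Kdr, had means above the median of the genes tested (5.32), and their list averaged 10.11 to 10.19 in the wild-type set and 10.06 to 10.29 in the knockout set.

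No collagen gene passed the comparison of labels. In limma 0 of the 40 tested members had an adjusted p under 0.05, where 0% of all genes tested did, and their adjusted p ranged from 0.971 to 1. At an unadjusted p under 0.05 there was 1 member, Col10a1, against 3.34% of all genes tested (2.38% positive and 0.962% negative). The count at an adjusted p under 0.05 was 0 as well in every alternative fit, and 0 at a threshold of 0.1. The differences ranged from -0.26 to 0.40 with a median of 0.04, beside a median of 0.015 over all genes tested. They were positive for 28 members and negative for 12, and positive for 54.4% of all genes tested. Leaving out wild-type 3 gave 21 positive members and a median of 0.00375, and leaving out both wild-type 3 and knockout 3 gave 19 and -0.005. Without knockout 2 the median was 0.06. The median with quantile normalization was 0.08 and with median centring 0.10, where 31 and 32 members were positive. The median over all genes tested also moved, to 0.046 and 0.0725, and centring added the same 0.0575 to every gene. When arrays were left out in turn, the difference of each of the 40 members turned sign, reached 0 or moved by over 1.5 times without some array, and 19 turned sign. The same shares over all genes tested were not counted, so these counts are no result about collagen genes.

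The intervals show what size of change the arrays could bound. The 95% confidence interval lay within 0.5 of 0 on both sides for 18 of the 40 members, where it did so for 55% of all genes tested. From the estimate to either bound was 0.36 in the median for the members and 0.35 for all genes tested. Each of the 6 type IV chains was among the 18, and neither multiplexin nor any of the 5 beaded filament chains was.

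**Figure D1:**
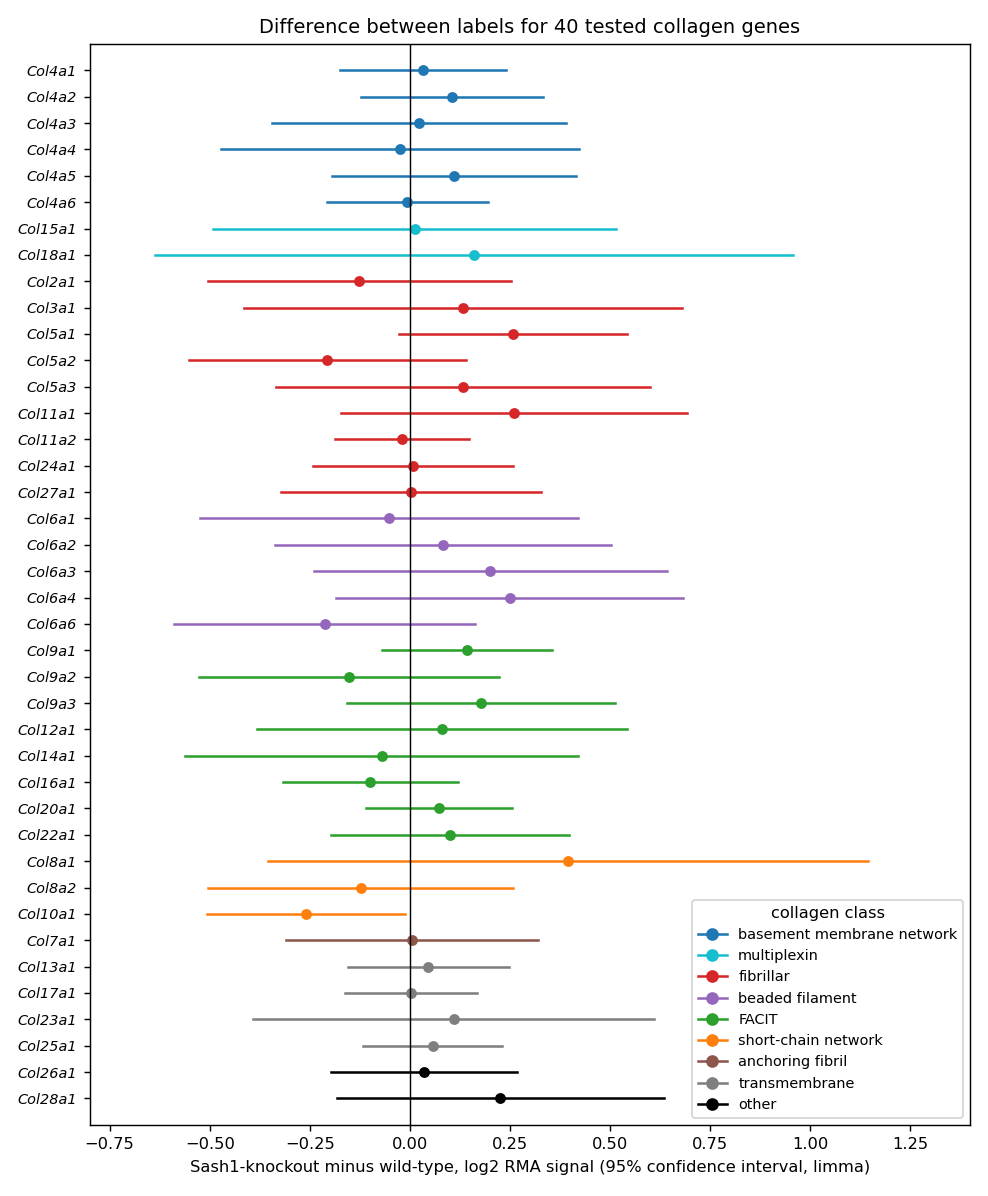
Difference between the labels for the 40 tested collagen genes, as knockout-labelled minus wild-type-labelled log2 signal on the x axis, with points for the limma estimate, lines for its 95% confidence interval and colours for the collagen class. The interval of Col10a1 alone does not reach 0, and its adjusted p is 0.971. Col8a1 has the estimate farthest from 0, at 0.40, and 0.15 without knockout 3.

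Type IV collagen is the network of basement membranes, and its chains Col4a1 and Col4a2 assemble together. Their genes face away from each other with neighbouring starts, which is shown here because the signals of these 2 members kept a near-constant step over the arrays. In RefSeq (GRCm38.p6) the annotated start of Col4a2 on the plus strand and that of Col4a1 on the minus strand lie 21 bases apart, and the first 22 bases of each transcript cover the same stretch. The 30 bases at chr8:11312801-11312830 are printed for each strand, with that shared stretch in capitals.
Col4a2: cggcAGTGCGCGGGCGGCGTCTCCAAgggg
Col4a1: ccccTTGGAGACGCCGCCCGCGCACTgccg
The capitals hold 1 GC box (GGGCGG, read on the Col4a2 strand). For Col4a5 and Col4a6, also on opposite strands, the starts lie 1343 bases apart.

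Col4a1 had a log2 signal of 9.96, 9.91 and 9.97 on wild-type 1 to 3, and 9.97, 10.12, 9.86 and 9.97 on knockout 1 to 4. The labels overlapped, and both the highest and the lowest value came from the knockout-labelled arrays. It differed by 0.03 (SE 0.09, 95% confidence interval -0.17 to 0.24, adjusted p of 0.99 in limma), which is 102% of the wild-type level. Without knockout 2 the difference was -0.01. The signal of Col4a2 was 8.82, 8.69 and 8.81, then 8.82, 9.05, 8.77 and 8.87 in the same order. Knockout 2 was again highest, and the difference was 0.10 (SE 0.10, interval -0.12 to 0.33, adjusted p of 0.971). Within each array Col4a2 read lower than Col4a1 by a near-constant step, from -1.22 on wild-type 2 to -1.07 on knockout 2. Different probe sets bind with different strength, so the step is no measure of chain ratio and its steadiness is all that is read from it. Each signal was itself steady, with ranges over the arrays of 0.26 and 0.36, where the median of tested members was 0.64. For Col4a4 less Col4a3 the step ran from -1.1 to -0.44, and for Col4a6 less Col4a5 from -0.55 to -0.04. The part of the neighbouring starts in these steps was not tested.

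Col4a3, Col4a4, Col4a5 and Col4a6, the chains of specialised basement membranes such as those of the kidney, had means of 4.12 to 4.89, below the median of the genes tested. They differed by 0.02, -0.03, 0.11 and -0.0067, and none passed. Col4a4 was lowest on knockout 2 (3.74) and highest on knockout 1 (4.48), so its spread lay among arrays of 1 label. Col4a6 had the value 4.11 on 4 of the 7 arrays.

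The multiplexins Col15a1 and Col18a1 join basement membranes to the matrix outside, and the end of Col18a1 protein can be cut off as endostatin, an inhibitor of vessel growth. Their promoters are shown because these 2 related genes took different courses over the same arrays. The 250 bases before the annotated start are given from RefSeq (GRCm38.p6), Col15a1 at chr4:47207762-47208011 on the plus strand and Col18a1 at chr10:77166531-77166780 on the minus strand. Capitals mark motif matches on either strand. The TATA box was searched as TATAAA. The GC box was searched as GGGCGG, the binding motif of Sp1-like factors. The CCAAT box was searched by the letters of its name, and these motifs did not overlap here.
Col15a1: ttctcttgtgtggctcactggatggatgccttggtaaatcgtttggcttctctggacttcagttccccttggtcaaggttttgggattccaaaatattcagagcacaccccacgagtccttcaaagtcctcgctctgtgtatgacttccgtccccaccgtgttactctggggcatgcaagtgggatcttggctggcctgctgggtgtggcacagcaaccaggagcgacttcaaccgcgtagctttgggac
Col18a1: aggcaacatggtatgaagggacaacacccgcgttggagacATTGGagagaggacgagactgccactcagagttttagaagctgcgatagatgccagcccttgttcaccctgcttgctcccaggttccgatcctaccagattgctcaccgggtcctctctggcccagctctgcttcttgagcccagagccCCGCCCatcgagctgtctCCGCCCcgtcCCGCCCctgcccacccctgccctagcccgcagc
The Col15a1 window held none of these letters and 8 CpG. The Col18a1 window held 3 GC boxes, 1 CCAAT box and 12 CpG. RefSeq has another Col18a1 start, whose window held 3 CpG and none of the motifs, and the files do not say which start the probe set reads. The part of these motifs in the signals of the 2 genes was not tested.

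Col15a1 was nearly level in the wild-type set, at 6.13, 6.14 and 6.13, and spread out in the knockout set, at 6.35, 6.62, 5.76 and 5.85. Knockout 1 and 2 lay above all wild-type-labelled values and knockout 3 and 4 below them. The mean difference was therefore small, 0.01 (SE 0.21, interval -0.49 to 0.51, adjusted p of 1 in limma), and turned to -0.15 without knockout 2 and -0.06 without knockout 1. It was 0.14 without knockout 3 and 0.11 without knockout 4.

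Col18a1 read 5.86, 5.92 and 5.31 in the wild-type set and 5.20, 5.47, 6.40 and 6.36 in the knockout set. Here knockout 3 and 4 were the highest of all arrays and knockout 1 the lowest, while in Col15a1 knockout 1 and 2 were highest and knockout 3 and 4 lowest. Col18a1 minus Col15a1 was -1.15 on both knockout 1 and knockout 2, and 0.64 and 0.51 on knockout 3 and 4. The mean difference of Col18a1 between labels was 0.16 (SE 0.34, interval -0.64 to 0.96, adjusted p of 0.982), and it turned negative without wild-type 3 (-0.03), knockout 3 (-0.02) or knockout 4 (-0.0067). Without wild-type 3 and knockout 3 together it was -0.21.

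**Figure D2:**
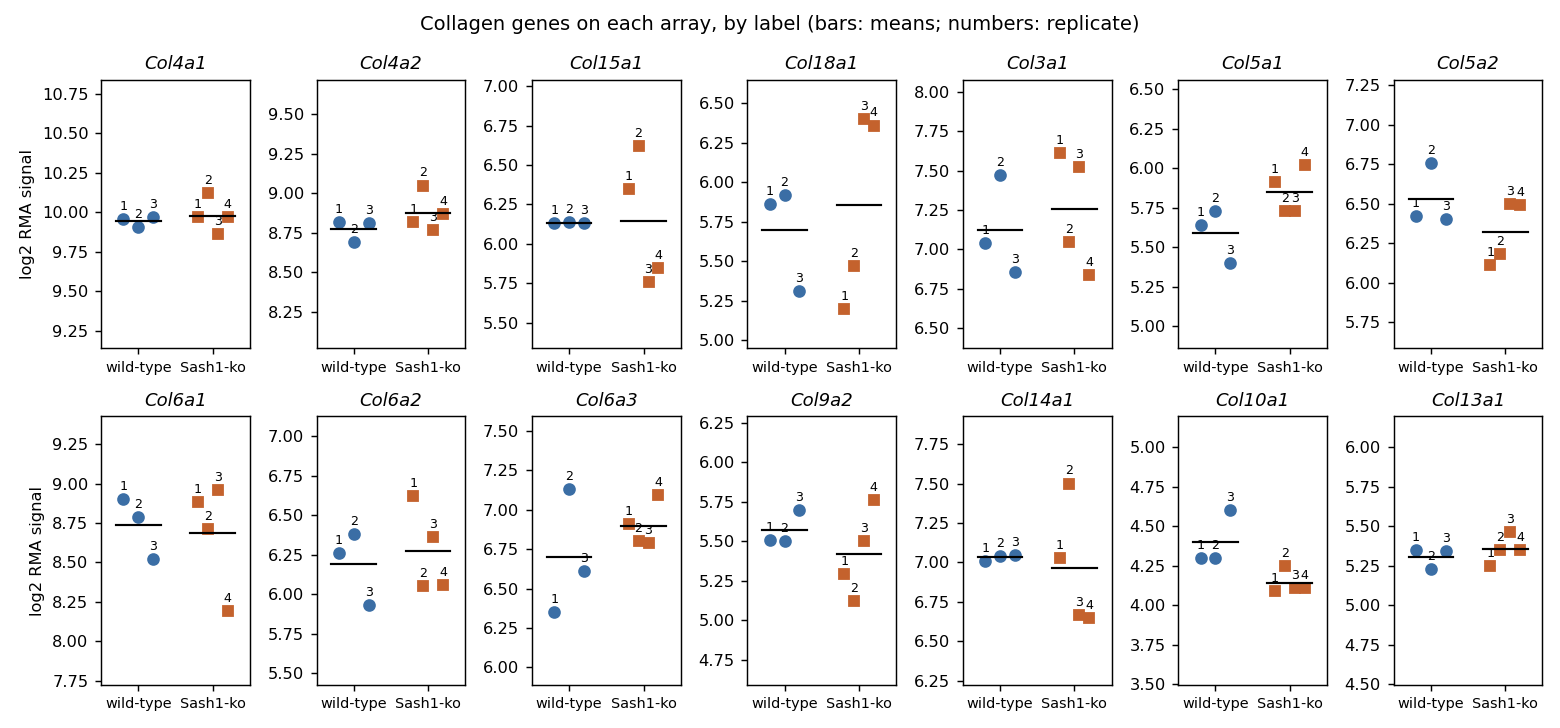
Log2 RMA signal (y axis, each panel spanning 1.7 units) of the 14 collagen genes described array by array, with circles for arrays labelled wild-type, squares for those labelled knockout, replicate numbers beside them and bars for the means. The labels overlap or touch in every panel but that of Col10a1, and in Col15a1 and Col14a1 the wild-type-labelled circles lie together while the squares spread.

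Among fibrillar collagens, Col3a1 builds the fine reticular fibres of lung and vessel walls, and type V chains start and limit fibril growth. Col3a1 was at 7.04, 7.47 and 6.86 in the wild-type set and 7.61, 7.05, 7.52 and 6.84 in the knockout set. High and low arrays occurred under both labels. The difference was 0.13 (SE 0.23, interval -0.42 to 0.68, adjusted p of 0.982 in limma), and 0 without wild-type 3.

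Col5a1 had 5.64, 5.73 and 5.40 in the wild-type set and 5.91, 5.73, 5.73 and 6.02 in the knockout set. No knockout-labelled value was below the highest wild-type-labelled one, but knockout 2 and 3 equalled wild-type 2 at 5.73. The 9 tested fibrillar members had 6 positive and 3 negative differences with a median of 0.0075. The Col5a1 difference, 0.26 (SE 0.12, interval -0.03 to 0.54, adjusted p of 0.971), did not pass, and the other Col5a1 probe set, which was dimmer, differed by 0.07. Without wild-type 3 it was 0.16, and with median centring its labels did not overlap.

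Col5a2, the partner chain of Col5a1, lay the other way, with 6.42, 6.76 and 6.40 against 6.11, 6.18, 6.50 and 6.49. Knockout 1 and 2 were lowest, knockout 3 and 4 lay between the wild-type-labelled values. It differed by -0.21 (SE 0.15, interval -0.55 to 0.14, adjusted p of 0.971 in limma). Col5a2 minus Col5a1 within an array was 0.78, 1.03 and 1.00 in the wild-type set and 0.20, 0.45, 0.77 and 0.47 in the knockout set. The sets came within 0.01 of each other without overlap in this quantity, which was 1 of 6 pairs of chains set side by side and was not tested. The 6 other tested fibrillar members had means between those of Col11a1 (3.27) and Col27a1 (5.004). Col2a1 and Col11a1, collagens of cartilage, differed by -0.13 and 0.26, Col11a2 by -0.02, Col5a3 by 0.13, and Col24a1 and Col27a1 by 0.0075 and 0.0017. The Col11a1 difference came with 2.64 on wild-type 3, where the other 6 arrays lay at 3.35 to 3.47, and was 0.02 without that array.

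The beaded filament chains of type VI form fine microfilaments around cells and basement membranes. Col6a1 had 8.90, 8.79 and 8.52 in the wild-type set and 8.88, 8.71, 8.96 and 8.19 in the knockout set. Knockout 4 was the lowest of all and knockout 3 the highest. The difference was -0.05 (SE 0.20, interval -0.52 to 0.42, adjusted p of 0.995 in limma), and it was 0.11 without knockout 4 and 0.03 without wild-type 1. The other Col6a1 probe set differed by 0.13, so the 2 probe sets of this gene had opposite signs.

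Col6a2 was at 6.26, 6.38 and 5.93, then 6.62, 6.05, 6.36 and 6.06. The sets overlapped between 6.05 and 6.38, with wild-type 3 below and knockout 1 above all arrays of the other set. The difference was 0.08 (SE 0.18, interval -0.34 to 0.50, adjusted p of 0.982 in limma), and it turned to -0.05 without wild-type 3 and -0.03 without knockout 1. Col6a3, the long chain of the filament, had 6.35, 7.13 and 6.61 against 6.91, 6.80, 6.79 and 7.09. The wild-type-labelled arrays held both its lowest and its highest value. It differed by 0.20 (SE 0.19, interval -0.24 to 0.64, adjusted p of 0.971), by 0.42 without wild-type 2 and by 0.03 without wild-type 1. Col6a4 and Col6a6, at means of 3.75 and 3.83, differed by 0.25 and -0.21. Of the 5 tested chains 3 differences were positive and 2 negative, with a median of 0.08. The class as a whole was lowest on wild-type 3, on average 0.205 below, and highest on knockout 1, 0.247 above the mean of each chain over the 7 arrays.

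FACIT collagens sit on the surface of fibrils and link them to their surroundings. Col14a1 was at 7.01, 7.04 and 7.05 in the wild-type set and 7.03, 7.50, 6.67 and 6.65 in the knockout set. As in Col15a1, the wild-type-labelled values lay together, knockout 2 was above them and knockout 3 and 4 below. The difference was -0.07 (SE 0.21, interval -0.56 to 0.42, adjusted p of 0.993 in limma), and 0.03 without knockout 3 or without knockout 4.

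Col9a2, a chain of the cartilage FACIT type IX, had 5.51, 5.50 and 5.70 against 5.29, 5.12, 5.50 and 5.76. It differed by -0.15 (SE 0.16, interval -0.53 to 0.22, adjusted p of 0.971). Its partner chains Col9a1 and Col9a3 were dimmer, with means of 3.20 and 3.58, and differed by 0.14 and 0.18. Col12a1, a FACIT of tendon and other dense tissue, was at 5.14 on knockout 3 and at 4.39 to 4.81 elsewhere, and differed by 0.08. Col16a1, Col20a1 and Col22a1 differed by -0.10, 0.07 and 0.10. The 8 tested FACIT members had 5 positive and 3 negative differences with a median of 0.08.

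Col10a1, a short-chain collagen made by hypertrophic cartilage cells, was the only member whose labels did not overlap. It was at 4.30, 4.30 and 4.60 in the wild-type set and 4.09, 4.25, 4.11 and 4.11 in the knockout set. The gap between the nearest arrays of the 2 labels was that from 4.25 to 4.30, and wild-type 3 stood above the other 2. The difference was -0.26 (SE 0.11, interval -0.51 to -0.01, unadjusted p of 0.0417, adjusted p of 0.971 in limma), and the level was 83.5% of that in the wild-type set. It was -0.16 without wild-type 3. Non-overlap in 1 of 40 members stands beside 2.45% of all genes tested, and beside 0.679% for non-overlap with lower values on the arrays labelled knockout. With quantile normalization or median centring the labels of Col10a1 overlapped. Its mean of 4.25 was below the median of the genes tested. The 10 cartilage markers, such as Acan and Sox9, averaged 4.44 to 4.57 in the wild-type set and 4.54 to 4.83 in the knockout set. Of the 10, 3 were at or above that median and 7 were tested, with 4 positive and 3 negative differences. Sox9 differed by 1.13 (interval -0.64 to 2.90) and Acan by -0.13, so the list average does not speak for each marker. The part of these markers in the Col10a1 values was not tested.

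The Col10a1 promoter is shown as that of the single member without overlap, from chr10:34389731-34389980 on the plus strand (RefSeq, GRCm38.p6), with capitals as above.
Col10a1: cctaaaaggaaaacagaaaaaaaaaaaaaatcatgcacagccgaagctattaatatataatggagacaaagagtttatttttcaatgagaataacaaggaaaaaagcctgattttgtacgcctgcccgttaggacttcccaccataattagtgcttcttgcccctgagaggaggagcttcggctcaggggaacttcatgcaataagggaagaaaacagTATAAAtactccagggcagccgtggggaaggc
It held 1 TATA box and 5 CpG, and their part in the Col10a1 values was not tested. Over the 37 RefSeq windows found for 34 members, a TATA box was in 13.5%, a GC box in 56.8% and a CCAAT box in 32.4%. The shares over all 32851 mouse windows of this length were 12.4%, 32.7% and 33.8%. Sash1 is on chromosome 10, as are Col10a1, Col13a1, Col18a1, Col6a1 and Col6a2, the 5 members with a window there, and the part of this in the values was not tested.

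Col8a1 and Col8a2, the short-chain collagens of vessel walls and of the membrane under corneal endothelium, differed by 0.40 and -0.12. Col8a1 had 4.13, 4.03 and 4.26 in the wild-type set and 4.77, 3.85, 5.28 and 4.24 in the knockout set. The knockout-labelled arrays held its highest and its lowest value, and the interval of the difference ran from -0.36 to 1.15. Without knockout 3 the difference was 0.15. Its adjusted p in limma was 0.971.

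The transmembrane collagens stay in the cell surface of the cell that makes them. Col13a1, found at sites of cell adhesion, was at 5.35, 5.23 and 5.34, then 5.25, 5.35, 5.46 and 5.35. Values lay within 0.23 of each other, the labels overlapped, and the difference was 0.05 (SE 0.09, interval -0.16 to 0.25, adjusted p of 0.982 in limma). Col17a1, the hemidesmosome collagen of epithelium, read 4.11 on 6 arrays and 4.12 on knockout 3. Col23a1 and Col25a1 differed by 0.11 and 0.06. Col7a1, which forms the anchoring fibrils of skin, differed by 0.01, and Col26a1 and Col28a1, which belong to no larger class, by 0.03 and 0.23.

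The range over the 7 arrays had a median of 0.64 over the tested members and 0.60 over all genes tested. The size of the difference between labels had medians of 0.10 and 0.11. The SD was larger among the knockout-labelled arrays than among the wild-type-labelled ones for 25 members, or 62.5%, where this held for 57.1% of all genes tested. Wild-type 3 held the lowest value of 11 members and knockout 1 the highest of 10, counting 1 array per member where arrays tied. On average the tested members lay 0.103 below their own means on wild-type 3 and 0.069 above them on knockout 3. These are the 2 arrays whose Sash1 signals stood in the reverse order of their labels. The average deviation was -0.076 on knockout 2, 0.057 on knockout 1 and 0.029 on knockout 4, and 0.002 and 0.022 on wild-type 1 and 2. Neither these averages nor the counts of lowest and highest values were set beside all genes tested.

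**Figure D3:**
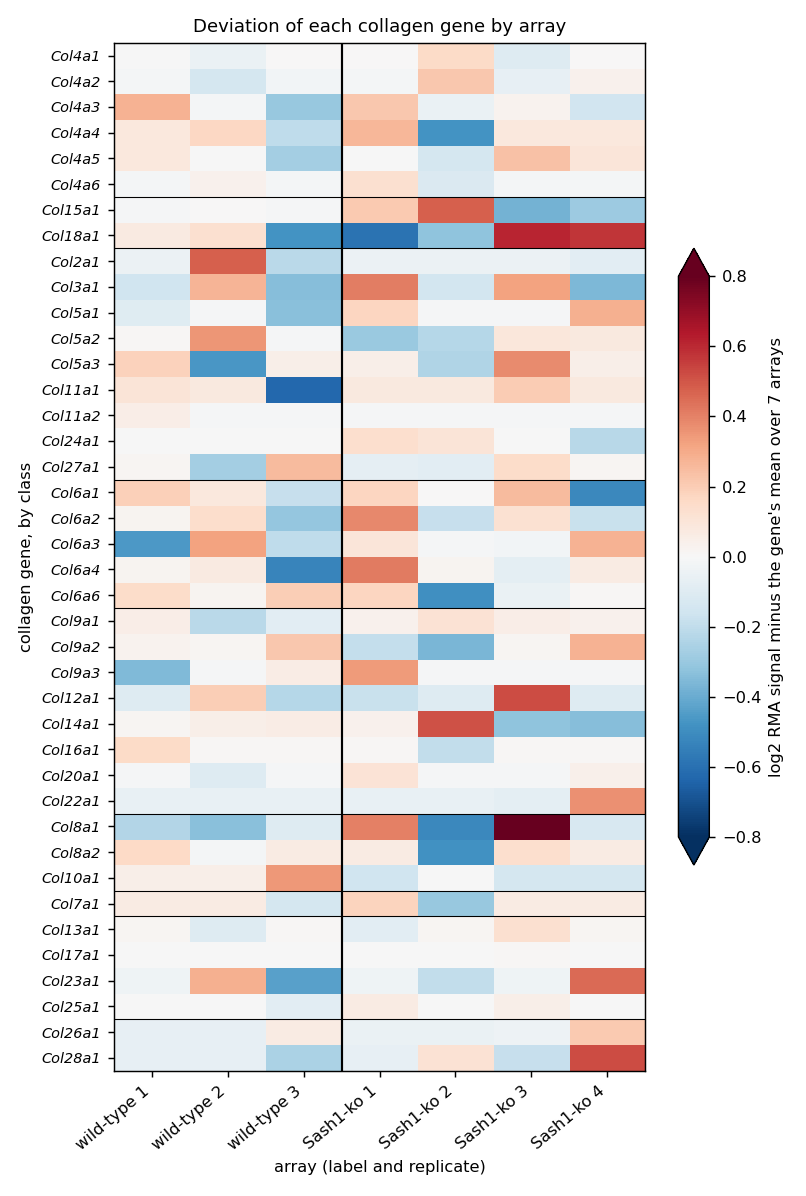
Log2 signal of each tested collagen gene minus its own mean over the 7 arrays (colour, red above and blue below), by array in columns and by class in rows, with a vertical line between the labels. Colours change within a label, as in Col18a1 (5.20 to 6.40 on knockout-labelled arrays), and rows such as Col17a1 and Col11a2 are near white because almost all arrays share 1 value.

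Exact ties were frequent among the dimmer members. The same value to 2 decimals occurred on 3 or more arrays in 21 of the 40 tested members (52.5%) and in 31.6% of all genes tested. This held for 18 of the 27 members under the median level of genes tested, where 44.1% of all such genes did so. At or above that level it held for 3 of the 13 members, beside 19.1% of all such genes. Detection calls were not part of the values used here, so the dim members cannot be called present or absent.

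Other cell types were read through marker lists, because fibroblasts and mural cells make most fibrillar and beaded filament collagen. The 13 fibroblast markers, among them Pdgfra, Tcf21 and Dcn, averaged 6.49 to 7.14 in the wild-type set and 6.55 to 7.13 in the knockout set, with 10 of the 13 above the median of genes tested. Of their differences 9 were positive and 4 negative. Tcf21 differed by 0.47 (adjusted p of 0.971 in limma) and was higher on every knockout-labelled array, as 1.77% of all genes tested were. The 11 mural and smooth muscle markers, such as Pdgfrb and Acta2, averaged 6.53, 6.50 and 5.83, then 6.43, 6.13, 6.72 and 5.75. Of these 11, 8 were at or above the median of genes tested, and 6 differences were positive and 5 negative. The list was lowest on knockout 4 and wild-type 3, as Col6a1 and Col3a1 were. Col5a1 was highest on knockout 4 and Col6a3 second highest there, so other members did not share this order. Dissociation stress genes such as Fos and Egr1 ran from 6.95 on knockout 4 to 9.36 on knockout 3, and epithelial markers from 6.57 on knockout 4 to 8.12 on wild-type 1. Differences were negative for 10 of 12 stress genes and 11 of 13 epithelial markers. Of these 13 markers 11 were at or above the median of genes tested, in cells sorted as negative for CD326. Sftpc had a mean of 11.69 over the 7 arrays, beside 11.92 for the endothelial marker Cdh5. The 10 leukocyte, 7 cardiac muscle and 7 mesothelial markers averaged 4.93 to 5.73, 5.20 to 6.29 and 4.87 to 5.84 over the 7 arrays. Negative differences numbered 9, 5 and 4 in these lists, and positive ones 1, 2 and 3. The cardiac gene Myl7 differed by -1.26 (adjusted p of 0.971 in limma) and was lower on every knockout-labelled array, as 0.679% of all genes tested were. The part of these cell types and of stress in the collagen values was not tested. In these bulk samples fewer cells of a type and less RNA per cell cannot be told apart.

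**Figure D4:**
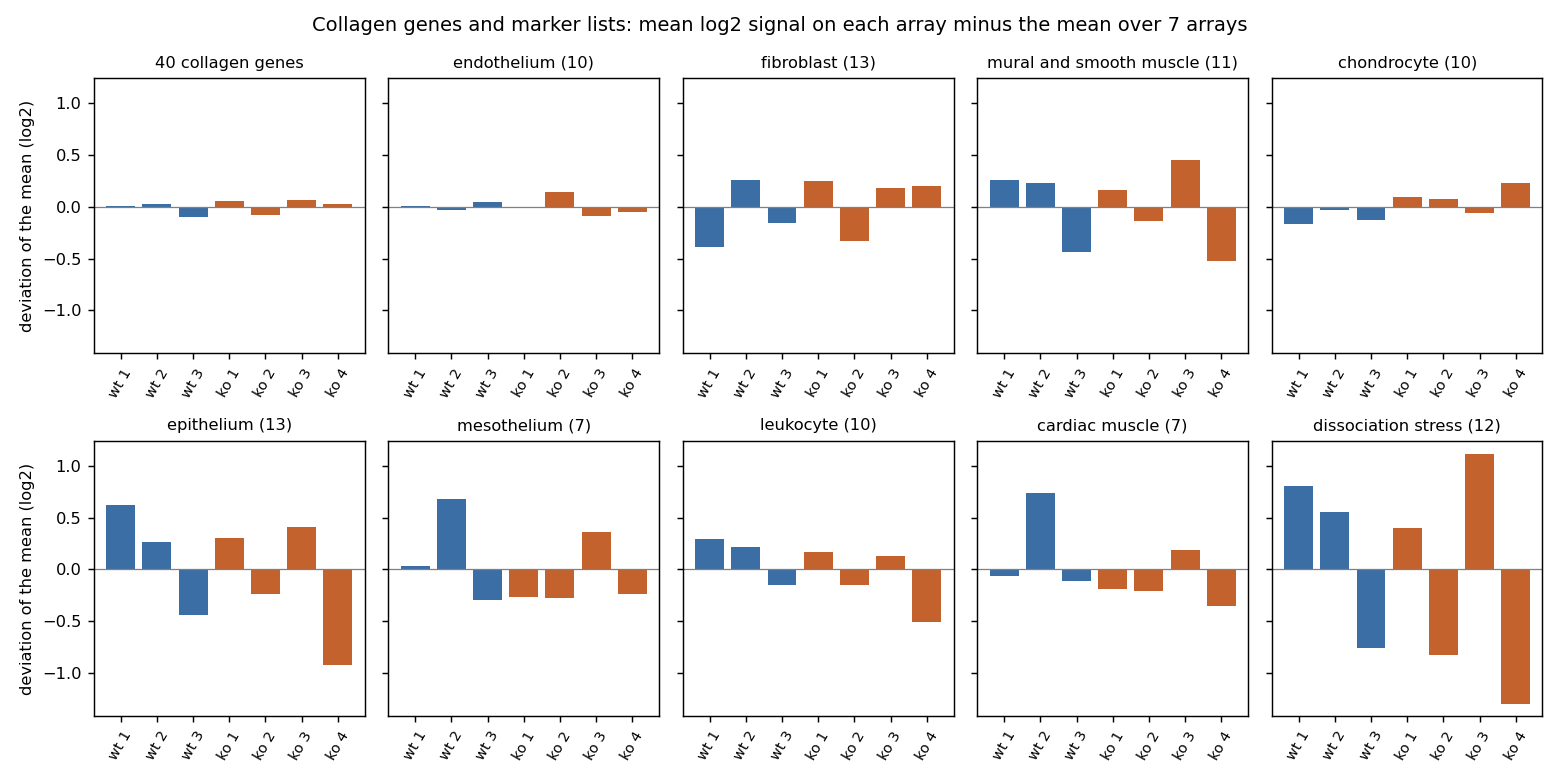
Mean log2 signal on each array minus the mean over the 7 arrays (y axis) for the 40 tested collagen genes and for 9 marker lists, with the number of measured genes in brackets, blue bars for arrays labelled wild-type and orange bars for those labelled knockout. The collagen bars stay within 0.103 of 0 while the dissociation stress and epithelial bars run over a log2 unit or more from array to array. Single collagen genes can offset each other in such a mean, and Col8a1 and Col18a1 had ranges of 1.43 and 1.2.

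Genes that modify, export, trim, cross-link, bind and cut collagen were counted from 6 lists. Of 54 genes listed 49 were measured and 46 tested, of which 28 had positive and 18 negative differences with a median of 0.03, and 0 passed an adjusted p of 0.05 in limma. At an unadjusted p under 0.05 there were 2, Colgalt1 and Mmp14, beside 3.34% of all genes tested, and positive differences made up 54.4% of all genes tested. Plod3, Fkbp10, Adamts2, Loxl2 and Itga10 were not analysed here.

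The hydroxylation and glycosylation list had 9 positive and 5 negative differences over 14 tested genes. Colgalt1, which puts galactose on hydroxylysine, differed by 0.24 (interval 0.01 to 0.47), Colgalt2 by 0.29 (-0.03 to 0.62), and P4hb, a subunit of prolyl hydroxylase, by 0.04 (-0.18 to 0.27). In chaperone and export 4 of 7 were positive, with Serpinh1, the collagen chaperone HSP47, at 0.10 (-0.18 to 0.38) and Klhl12 at 0.10. For propeptide removal 6 of 7 were positive, with the proteinase gene Adamts3 at 0.21 and Pcolce2, an enhancer of propeptide cutting, at 0.12. Without 1 array Colgalt2 was 0.17 (wild-type 2), Klhl12 0.03 (knockout 4), Serpinh1 0.03 (knockout 2), and without wild-type 3 Adamts3 was 0.11, Pcolce2 0.02 and P4hb -0.0025. None of these passed, with an adjusted p of 0.971 in limma for all but P4hb (0.982).

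Among 5 tested cross-linking genes 3 differences were positive, and the lysyl oxidase relatives Loxl1 and Loxl4 differed by 0.37 and -0.28. The Loxl1 value came with 4.64 on wild-type 3 against 5.44 to 5.87 on the other arrays, and the difference was 0.05 without that array. Collagen receptors had 3 positive and 5 negative differences, with the uptake receptor Mrc2 at 0.24 and the integrin chain Itga11 at 0.12. Mrc2 was 0.10 without wild-type 3 and Itga11 0.0067 without knockout 2.

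In the cleavage list Mmp14, a membrane-bound protease that cuts fibrillar collagen, was at 8.82, 8.80 and 8.91 in the wild-type set and 9.09, 9.18, 9.21 and 9.30 in the knockout set. Every knockout-labelled array was above every wild-type-labelled one, as in 1.77% of all genes tested. The difference was 0.35 (SE 0.09, interval 0.15 to 0.55, unadjusted p of 0.00412), which did not pass in limma (adjusted p of 0.971), and it stayed between 0.32 and 0.39 when each array was left out in turn. Mmp8, the neutrophil collagenase, differed by -0.53 (-1.44 to 0.39), with 6.35 on wild-type 1 and 4.50 to 5.24 elsewhere, and by -0.045 without wild-type 1.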

How the data were processed

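Amplified RNA of the 7 samples was measured on 1-colour Affymetrix arrays. Per the submitters' processing notes, the authors made the deposited values with RMA in Affymetrix Expression Console 1.1, and that the deposited values are log2 was read from the values themselves. Probe sets were named through GEO's platform annotation, updated by gene identifier through RefSeq (99.2% found), and 23521 of 41345 had 1 symbol. Genes were represented by their brightest probe set, and 5543 genes with a mean under 2.98 were left out. Labels were compared over 16637 genes with limma 3.58.1 (lmFit, eBayes, genotype as the only term) in R 4.3.3, two-sided, with Benjamini-Hochberg adjustment over all genes. The fit was tested on simulated data.

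The members, lists and alternatives were chosen with earlier results of these data known. Members were described array by array when their mean reached the median of genes tested, their labels did not overlap or their unadjusted p was under 0.05. In each processing list the 2 genes of smallest unadjusted p were named, with Serpinh1 and P4hb. Other members' values, and Col8a1 array by array, were chosen after they were seen. Arrays have no sequencing depth, and their number limits the precision. No 2 arrays held identical values.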

Additional observations from a re-analysis of the deposited data

Results flagged for a closer look

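The knockout-labelled arrays were not all at 1 value in 39 tested members. In 10 of the 39, 1 of these 4 arrays stood apart from the other 3. Chance gives this in about 1 of 20 groups where values do not tie, and ties were frequent here. The same share over all genes tested was not counted, so the 10 are no result about collagen genes. In 5 of the 10 the other 3 arrays shared exactly 1 value, so that any departure counts. These were Col2a1 (4.32 on knockout 4), Col11a1 (3.47 on knockout 3), Col9a3 (3.92 on knockout 1), Col16a1 (4.16 on knockout 2) and Col17a1 (4.12 on knockout 3). Col12a1 was at 5.14 on knockout 3, with the others at 4.44 to 4.51, and its difference of 0.08 became -0.08 without that array. Col22a1 was at 3.96 on knockout 4, with the others at 3.52 to 3.54, and its difference of 0.10 became -0.0067. Col8a2 was at 3.34 on knockout 2, with the others at 3.89 to 3.96, and its difference of -0.12 became 0.02. Col10a1 was at 4.25 on knockout 2, with the others at 4.09 to 4.11, and its difference of -0.26 became -0.30. Col26a1 was at 5.15 on knockout 4, with the others at 4.89 to 4.90, and its difference of 0.03 became -0.03.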

How the results depend on the processing

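The count of collagen genes at an adjusted p under 0.05, and that of collagen processing genes, was 0 in every alternative. The count at an unadjusted p under 0.05, 1 with all arrays, was 0 with the dimmest 50% of genes left out, quantile normalization, trend and robust moderation or the replicate block. The shares of all genes there were 3.42%, 4.24%, 3.04% and 1.35%. Only 19 members were tested with the dimmest 50% left out, and Col10a1 was not among them. The 0 there is therefore no result about Col10a1. With median centring the count at this p stayed at 1 (4.29%), but the member was Col5a1. This count was 0 with wild-type 3 and knockout 3 both left out (10.7% of all genes), and 0 to 2 with single arrays left out (1.77% to 7.9%). The count without overlap, also 1, was 0 with the dimmest 50% left out (2.8% of all genes), where Col10a1 was again not tested. With median centring it was 3 (6.64%), namely Col20a1, Col5a1 and Col9a3. With quantile normalization it was 1 (6.17%), but the member was Col20a1. This count was 3 without both arrays (24%), and 1 to 3 with single arrays left out (4.09% to 15.3%). The median difference, 0.04, was 0.080 with quantile normalization, 0.10 with median centring, -0.005 without both arrays, and 0.00375 to 0.062 with single arrays left out. All 14 members described array by array turned sign, reached 0 or moved by over 1.5 times without some 1 array. The same share over all genes tested was not counted. Of the 14 members 6 turned sign and Col3a1 reached 0. Ranges were -0.013 to 0.073 for Col4a1, -0.15 to 0.14 for Col15a1 and -0.033 to 0.38 for Col18a1. They were 0 to 0.31 for Col3a1, -0.16 to 0.11 for Col6a1, -0.048 to 0.18 for Col6a2 and -0.25 to 0.033 for Col14a1. Others kept their sign, such as Col4a2 (0.047 to 0.14), Col5a2 (-0.27 to -0.09), Col9a2 (-0.27 to -0.053) and Col13a1 (0.0075 to 0.08). With the replicate block, signs turned for Col6a1 (0.11), Col18a1 (-0.0067) and Col14a1 (0.033). Only the knockout label has a replicate 4, so these differences equal those without knockout 4 and are no separate alternative. Signs also turned for Col6a1 with median centring (0.0058, a shift of 0.0575 that every gene shares) and the mean of probe sets (0.041). They turned for Col15a1 with array weights (-0.026), and without both arrays for Col18a1 (-0.21), Col3a1 (-0.088), Col6a2 (-0.077) and Col14a1 (0.035). The cause of these turns was not tested. Same-numbered arrays did not deviate together (correlations of -0.18, -0.20 and -0.55 across genes). No values for differently numbered arrays stand beside these, so they do not settle whether the numbers pair the samples, which the labels do not say.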
